A study of Mus musculus with 6 samples.

Results

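The granins and the proteins that process prohormones were followed as 10 genes, Chga, Chgb, Scg2, Scg3, Scg5, Pcsk1, Pcsk2, Pcsk1n, Cpe and Pam, of the 37086 genes in the deposited tables. They were chosen by name for their roles, with earlier results of these data known. Every transcript that the GENCODE M21 annotation gives to one of them was taken up, 26 in all, of which Pam had 14. Pcsk1, Pcsk2 and Scg5 had 2 transcripts each and the other genes 1. The RNA was that of dorsal root ganglia, which hold the cell bodies of the sensory neurons with their glia along the spinal cord, dissected from 18 wild-type C57BL/6J mouse embryos at 14.5 days post coitum and pooled before lysis. The high-volume group was 3 libraries made from 3, 10 and 30 ng of this RNA in 9 µl, and the low-volume group was 3 libraries made from the same amounts in 1 µl. Each volume had a SMARTer low-input cDNA kit of its own, so that volume and kit cannot be told apart. One pool of RNA gave all 6 libraries, and every error and p-value below is therefore technical and says nothing of differences between embryos.

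Granins are acidic proteins that are packed together with prohormones and neuropeptides into dense-core granules, the regulated secretory vesicles of neurons and endocrine cells. Inside these granules the prohormone convertases cut precursors at basic residues, carboxypeptidase E trims the basic residues that remain, and the amidating enzyme Pam finishes the C-terminus of many peptides. In dorsal root ganglia this machinery belongs to the regulated pathway by which sensory neurons release neuropeptides such as substance P.

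The tables give whole-number read counts, called tags, for transcripts, exons and introns, and an RPKM, which is the tag count per kilobase of feature and per 1000000 tags of the library. The high-volume libraries held 14160412 to 25867679 tags in the transcripts used, 1 per gene, and the low-volume libraries held 15920974 to 31524201 tags. In each group the 3 ng library was the shallowest and the 30 ng library the deepest. The 10 genes together took 0.0731 to 0.0779% of the tags in high-volume libraries and 0.0697 to 0.0841% in low-volume libraries. All 20 markers of sensory neurons averaged at least 1 RPKM, led by Sncg, Tubb3 and Stmn2. Of 12 markers of sympathetic neurons and chromaffin cells, which are rich in Chga and Chgb, 2 reached that level, Th with 180 ± 25.1 RPKM and Ddc with 2.18 ± 1.19 RPKM (SD, n = 6), while Dbh, the enzyme that makes noradrenaline, had 0.118 ± 0.162 RPKM. In bulk RNA, fewer cells of a type and less RNA per cell cannot be told apart.

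All 10 genes were detected in all 6 libraries, and they spanned a wide range of levels. Scg5 and Cpe stood highest, with 129 ± 12.3 and 109 ± 8.88 RPKM, and Pcsk1 lowest, with 3.55 ± 1.64 RPKM (SD, n = 6). Scg5 exceeded 98.1% of all genes, and Pcsk1 exceeded 78.5%. In between came Scg3 with 48.8 ± 4.54, Chga with 26.8 ± 4.83 and Pcsk2 with 17.9 ± 2.40 RPKM. The lower members were Chgb with 7.59 ± 1.32, Pcsk1n with 7.55 ± 4.55, Pam with 4.73 ± 1.20 and Scg2 with 4.18 ± 1.38 RPKM. Of the 10 genes, 5 averaged 10 RPKM or more, against 12.5% of all genes. In this order the ranges over libraries overlapped for 5 of the 9 neighbouring pairs, which were Scg5 and Cpe, Chgb and Pcsk1n, Pcsk1n and Pam, Pam and Scg2, and Scg2 and Pcsk1. Scg5 was nevertheless above Cpe within each of the 6 libraries. The first 5 genes were thus separated from each other and from the rest, except Scg5 from Cpe, while the ranges of neighbours among the last 5 overlapped.

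**Figure D1:**
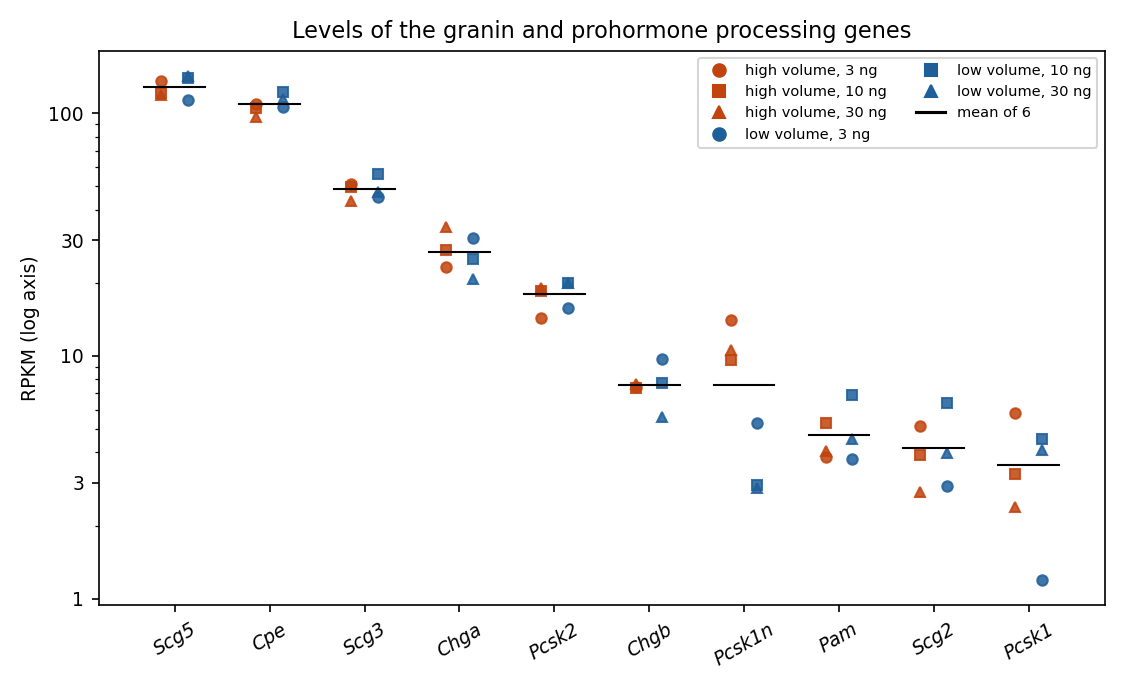
Deposited RPKM on a log axis of each of the 10 genes in each library, high volume left of low volume, with the input amount as the symbol and the mean of 6 libraries as a bar. Scg5 and Cpe lie near 100 RPKM in all libraries, and Pcsk1n is the gene whose high-volume points (9.61 to 13.99 RPKM) and low-volume points (2.86 to 5.28 RPKM) do not overlap.

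The libraries were compared between volumes with edgeR's quasi-likelihood test on tag counts across all genes, with Benjamini-Hochberg adjustment and a threshold of 0.05. With all 6 libraries, 0 of the 10 genes were called, beside 1 of 16120 genes tested (0.00620%), Gm42418, a gene named here only because it was the single call. Without the high-volume 30 ng library 2 genes were called, and without the low-volume 3 ng library 0. At an unadjusted p under 0.05, 1 of the 10 genes passed, Pcsk1n, beside 1076 of all genes (6.67%). DESeq2 called 174 genes on the same counts and none of the 10, but it gave Pcsk1n no adjusted p. Here and below, a gene without an adjusted p was counted as not called, so this 0 is no negative result for Pcsk1n. The median difference of the 10 genes was 0.09 on the log2 scale, high volume minus low volume, against 0.02 over all genes tested. Scaling by total counts in place of TMM moved the median of all genes to -0.10.

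With the 10 and 30 ng libraries alone, 1 of the 10 genes was called, again Pcsk1n, which was higher in high volume. The background of this fit was 275 of 16565 genes (1.66%), of which 201 were higher in high volume (1.21%) and 74 lower. This fit rests on 1 residual degree of freedom, and its count of calls moved with the design and with single libraries. Without the input term, an alternative chosen after the data were seen, the 4 libraries gave 83 calls, and Pcsk1n was the 1 call among the 10 genes. Where a library was left out the input term was dropped as well, since no residual degree of freedom remained with it. The count was then 539 without the high-volume 10 ng library, 95 without the low-volume 10 ng library and 143 without the low-volume 30 ng library. At an unadjusted p under 0.05, 4 of the 10 genes passed, Chga, Scg2, Pcsk1 and Pcsk1n, beside 2642 of all genes (15.9%), and DESeq2 called Pcsk1n alone of the 10. The median difference of the 10 genes was -0.06 in this fit, against 0.01 over all genes tested. TMM-scaled CPM, counts per 1000000 tags, separated the volume groups without overlap for 1 of the 10 genes, Pcsk1n, against 15.5% of 16000 genes, so this count of the 10 was not above the background. Without TMM scaling the background was 18.0%.

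**Figure D2:**
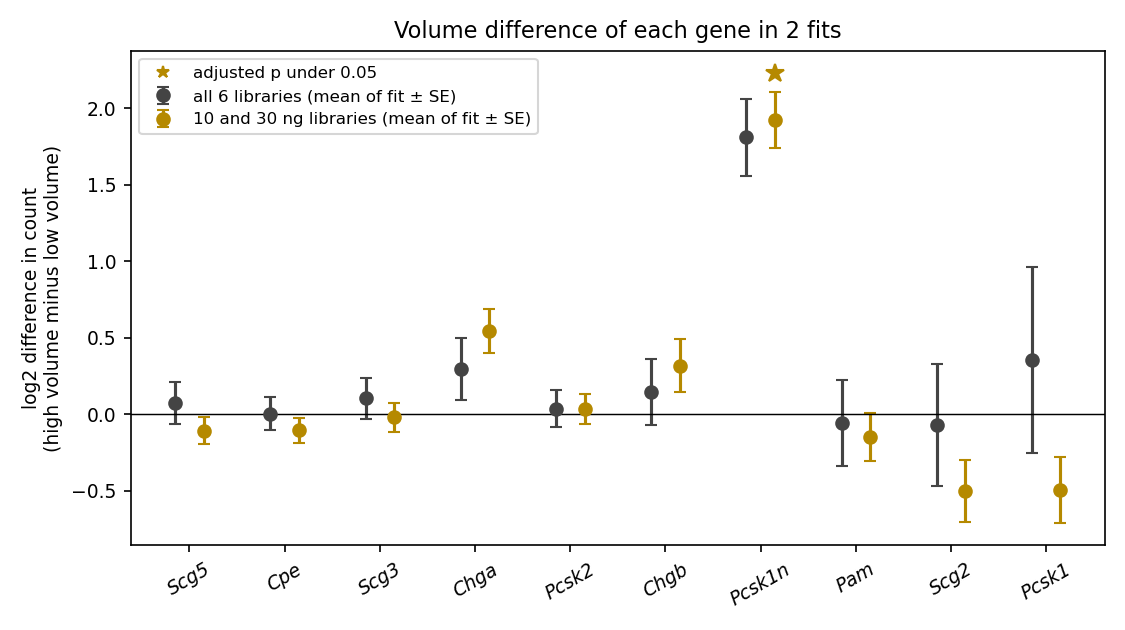
Log2 difference in count, high volume minus low volume, of the 10 genes with its SE, from the fit to all 6 libraries and from the fit to the 10 and 30 ng libraries, with a star at an adjusted p under 0.05. Pcsk1n stands at 1.81 and 1.92, and the other 9 genes lie between -0.50 and 0.54.

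Chga, chromogranin A, the granin used as a general marker of neuroendocrine cells, is a single transcript of 8 exons on chromosome 12 (GRCm38, chr12:102554969-102565027, plus strand). It measured 23.3, 27.4 and 33.9 RPKM in high-volume libraries of 3, 10 and 30 ng, against 30.6, 25.2 and 20.7 RPKM in low-volume libraries of the same inputs. The values followed opposite orders in the groups, lowest at 3 ng in high volume and highest at 3 ng in low volume, and the groups overlapped. The log2 difference in count between volumes was 0.30 ± 0.20 (SE) in 6 libraries and 0.54 ± 0.14 in the 10 and 30 ng libraries. Neither was called, with edgeR adjusted p of 0.795 and 0.0855. The second value lay close to the threshold and crossed it when the longest transcript stood for each gene in the whole table (adjusted p = 0.0490), when no low-count filter was used (0.00278) and without both the high-volume 10 ng library and the input term (0.00268). Without the input term alone it was 0.193. With input as a block and a correction for GC content it was 0.29, with an edgeR adjusted p of 0.274. The change of the volume difference per doubling of input was 0.31 ± 0.10, with an unadjusted p of 0.0171 and an edgeR adjusted p of 0.582. In this interaction test edgeR called 0 of the 10 genes and 0 of 16120 genes (0%). At an unadjusted p under 0.05 it found 2 of the 10, Chga and Pcsk1, and 1347 of all genes (8.36%), and DESeq2 called 17 genes and none of the 10.

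Chgb, chromogranin B, lies on chromosome 2 (chr2:132781278-132795079, plus strand) and measured 7.45, 7.37 and 7.65 RPKM in high-volume libraries of 3, 10 and 30 ng, against 9.75, 7.73 and 5.60 RPKM in low-volume libraries. The 3 high-volume values lay within a narrow band inside the range of the low-volume values. In every library Chgb stood below Chga, by 1.69 ± 0.18 in log2(RPKM + 1) (SD, n = 6, 6 of 6 libraries). This and the 8 other pairs of genes named below were compared over libraries by flipping the signs of the 6 differences in all ways, an exact permutation test (two-sided) that can give no p below 0.0312. The pair of Chgb and Chga reached it, with an adjusted p over 9 pairs of 0.0352. A single large exon, exon 4 with 1766 bases, carries most of Chgb, while its first exon of 505 bases and 66.7% GC had 9, 11 and 23 tags in high volume and 18, 8 and 15 tags in low volume. Per base this first exon held 0.0990 of the median of the exons of the transcript.

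Scg2, secretogranin II, the precursor of the peptide secretoneurin, lies on chromosome 1 (chr1:79434669-79440090, minus strand). It measured 5.15, 3.89 and 2.76 RPKM in high-volume libraries of 3, 10 and 30 ng, against 2.90, 6.39 and 4.00 RPKM in low-volume libraries. The highest and lowest of the 6 values came from the low-volume 10 ng and the high-volume 30 ng library, and the groups overlapped fully. Exon 2, with 2350 of its 2485 bases, held 97.8% of its tags. Scg2 was below Chga by 2.45 ± 0.57 and below Chgb by 0.76 ± 0.49 in log2(RPKM + 1) (SD, n = 6), each in 6 of 6 libraries with an exact p of 0.0312 and an adjusted p of 0.0352. The log2 difference in count between volumes was -0.07 ± 0.40 in 6 libraries (edgeR adjusted p = 0.974) and -0.50 ± 0.20 in the 10 and 30 ng libraries (0.256).

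Scg3, secretogranin III, which binds Chga and cholesterol in the granule membrane, lies on chromosome 9 (chr9:75643264-75683996, minus strand). It measured 51.0, 49.7 and 43.7 RPKM in high-volume libraries of 3, 10 and 30 ng, against 45.0, 56.2 and 47.3 RPKM in low-volume libraries. The 6 values lay within 1.29-fold of each other, and the groups overlapped. Scg3 was the most abundant of the 4 granins Chga, Chgb, Scg2 and Scg3 in each library, and it exceeded Scg2 by 3.30 ± 0.25 in log2(RPKM + 1) (SD, n = 6, exact p = 0.0312, adjusted p = 0.0352). Its log2 difference in count between volumes was 0.10 ± 0.14 in 6 libraries and -0.02 ± 0.09 in the 10 and 30 ng libraries. All 12 exons carried tags in every library, and the group means of exons 2 to 12 lay between 38.0 and 88.3 RPKM, while the first exon (61.9% GC) had 22.4 ± 1.81 RPKM in high volume and 26.8 ± 2.72 RPKM in low volume (SD, n = 3 each).

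Of Pcsk1 and Pcsk2, the convertases of the granules, Pcsk2 was the more abundant. Pcsk2, also called PC2, lies on chromosome 2 (chr2:143546156-143816285, plus strand) and measured 14.3, 18.4 and 19.1 RPKM in high-volume libraries of 3, 10 and 30 ng, against 15.7, 20.01 and 20.1 RPKM in low-volume libraries. Its 3 ng library was the lowest of each group, and within an input the volumes were close. The log2 change in count per doubling of input was 0.12 ± 0.05, with an unadjusted p of 0.0340 and an edgeR adjusted p of 0.6248. For input edgeR called 0 of the 10 genes and 0 of 16120 genes (0%). At an unadjusted p under 0.05 it found 1 of the 10, Pcsk2, and 1253 of all genes (7.77%), and DESeq2 called 36 genes and none of the 10. Without both 3 ng libraries Pcsk2 had a coefficient of variation of 4.08%, against 13.4% over all 6. Exons of Pcsk2 share 7.60% of their bases with Pcsk2os1 and Pcsk2os2, and whether the counting used strand is not given in the sources used here, so tags of these genes cannot be told apart there.

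Pcsk1, also called PC1/3, lies on chromosome 13 (chr13:75089826-75132498, plus strand). It measured 5.84, 3.26 and 2.39 RPKM in high-volume libraries of 3, 10 and 30 ng, against 1.19, 4.54 and 4.08 RPKM in low-volume libraries. Both the highest and the lowest of the 6 values came from 3 ng libraries, from 242 tags in high volume and 54 tags in low volume, a ratio of 4.90 in RPKM. At 10 and 30 ng the order was turned round, with ratios of 0.719 and 0.584. The change of the volume difference per doubling of input was -0.94 ± 0.29, with an unadjusted p of 0.0138 and an edgeR adjusted p of 0.582. The volume difference itself was 0.36 ± 0.61 in 6 libraries and -0.50 ± 0.21 in the 10 and 30 ng libraries (edgeR adjusted p = 0.891 and 0.284), and it ran between -0.45 and 1.03 when single libraries were left out of the 6. Pcsk2 exceeded Pcsk1 in 6 of 6 libraries, by 2.14 ± 0.60 in log2(RPKM + 1) (SD, n = 6, exact p = 0.0312, adjusted p = 0.0352). The Pcsk1 transcript in the tables has 2677 bases, against 5040 in the later annotation, so tags in the missing 3′ bases are not in these values.

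Scg5, also called 7B2, the chaperone that Pcsk2 needs for its maturation, lies on chromosome 2 (chr2:113776362-113829121, minus strand). It measured 136, 121 and 119 RPKM in high-volume libraries of 3, 10 and 30 ng, against 113, 140 and 142 RPKM in low-volume libraries. The lowest value was that of the low-volume 3 ng library, and the groups overlapped. The chaperone exceeded its enzyme by 2.78 ± 0.20 in log2(RPKM + 1) in 6 of 6 libraries (SD, n = 6, exact p = 0.0312, adjusted p = 0.0352). Its log2 difference in count between volumes was 0.07 ± 0.14 in 6 libraries and -0.11 ± 0.09 in the 10 and 30 ng libraries.

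Pcsk1n encodes proSAAS, a granin-like protein with a peptide that inhibits Pcsk1. It lies on the X chromosome (chrX:7919822-7924410, plus strand), as a transcript of 3 exons and 2193 bases with a GC content of 57.3%, higher than in 86.2% of the genes of at least 1 RPKM. It measured 13.99, 9.61 and 10.6 RPKM in high-volume libraries of 3, 10 and 30 ng, against 5.28, 2.95 and 2.86 RPKM in low-volume libraries. These rest on 475, 545 and 656 tags in high volume and on 196, 188 and 213 tags in low volume. Every high-volume value was above every low-volume value, and in each group the 3 ng library was the highest. The RPKM ratio of high to low volume was 2.65 at 3 ng, 3.26 at 10 ng and 3.71 at 30 ng. The log2 difference in count was 1.81 ± 0.25 in 6 libraries (unadjusted p = 0.000132, edgeR adjusted p = 0.327) and 1.92 ± 0.19 in the 10 and 30 ng libraries (edgeR adjusted p = 0.00169). With input as a block and a correction for GC content these were 1.66, with an edgeR adjusted p of 0.263, and 1.73, with an edgeR adjusted p of 0.00164. Without a low-count filter the 6-library difference was called too, with an edgeR adjusted p of 0.0301.

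The difference was unequal along the transcript. Exon 2 of Pcsk1n, with 467 bases and 73.0% GC, had 215, 211 and 226 tags in high-volume libraries of 3, 10 and 30 ng, against 53, 31 and 30 tags in low-volume libraries. Its level was 21.5 ± 7.17 RPKM in high volume and 3.63 ± 2.67 RPKM in low volume (SD, n = 3 each), a ratio of 5.91. Exon 1, with 223 bases and 70.9% GC, had 14, 27 and 35 tags in high volume and 0, 4 and 8 tags in low volume, which was 4.77 ± 0.760 RPKM in high volume and 0.558 ± 0.531 RPKM in low volume. Exon 3, with 1503 bases and 50.4% GC, had 9.26 ± 1.34 RPKM in high volume and 4.19 ± 1.24 RPKM in low volume, a ratio of 2.21. In 135 of its bases exon 3 overlaps the gene Eras. The log2 ratio of the level of exon 2 to that of exon 3 was 1.17 ± 0.31 in high volume and -0.39 ± 0.58 in low volume, with all high-volume values above all low-volume values. For exon 1 against exon 3 it was -0.93 ± 0.35 in high volume and -3.12 ± 2.02 in low volume, with 0.5 tags added to each exon, which sets the value of the low-volume 3 ng library, where exon 1 was at 0. The two-sided exact permutation test gave 0.1 for both, the smallest p that 3 against 3 libraries allow, so no such comparison could pass the threshold.

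The first line below is a coding stretch of 160 bases of Pcsk1n exon 2 (chrX:7922148-7922307, plus strand, 75.0% GC), an exon whose level differed between volumes, shown beside coding stretches of the same length from Cpe exon 1 (chr8:64692701-64692860, minus strand, 67.5% GC) and Cpe exon 5 (chr8:64609071-64609230, minus strand, 51.2% GC), which are described after them. They were read 5′ to 3′ from the GENCODE M21 transcripts on GRCm38, with the dinucleotide CG in capitals, which occurs 19, 16 and 9 times.
Pcsk1n exon 2: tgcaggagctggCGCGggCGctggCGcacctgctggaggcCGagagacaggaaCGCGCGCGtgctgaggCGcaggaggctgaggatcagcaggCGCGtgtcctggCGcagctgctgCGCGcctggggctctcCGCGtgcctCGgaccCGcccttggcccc
Cpe exon 1: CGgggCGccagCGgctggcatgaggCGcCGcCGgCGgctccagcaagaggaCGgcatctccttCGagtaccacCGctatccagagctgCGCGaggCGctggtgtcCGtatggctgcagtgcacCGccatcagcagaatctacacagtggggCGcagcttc
Cpe exon 5: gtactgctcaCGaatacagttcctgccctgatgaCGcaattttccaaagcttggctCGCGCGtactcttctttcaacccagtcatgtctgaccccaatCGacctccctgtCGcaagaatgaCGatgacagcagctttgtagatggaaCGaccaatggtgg

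Over the 6 libraries the genes whose TMM log2 CPM followed that of Pcsk1n most closely, among 10865 genes of at least 5 CPM, were Ttc9b (Pearson r = 0.998), Thra (0.991), Chchd10 (0.988), Hes5 (0.988) and Mri1 (0.986). The 6 points are 3 and 3 libraries that share a volume and kit, so a gene that differs between volumes scores high by that alone. The transcripts of Ttc9b, Thra, Chchd10 and Hes5 had GC contents of 61.0, 59.8, 61.9 and 62.1%, and that of Mri1 had 51.7%, against a median of 50.2% over 12533 genes of at least 1 RPKM. Pcsk1n was below Scg5 by 4.11 ± 0.90 in log2(RPKM + 1) in 6 of 6 libraries (exact p = 0.0312, adjusted p = 0.0352). Against Pcsk1, the enzyme it inhibits, it was higher in 4 of 6 libraries, by 0.81 ± 0.99 (SD, n = 6, exact p = 0.125, adjusted p = 0.125).

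**Figure D3:**
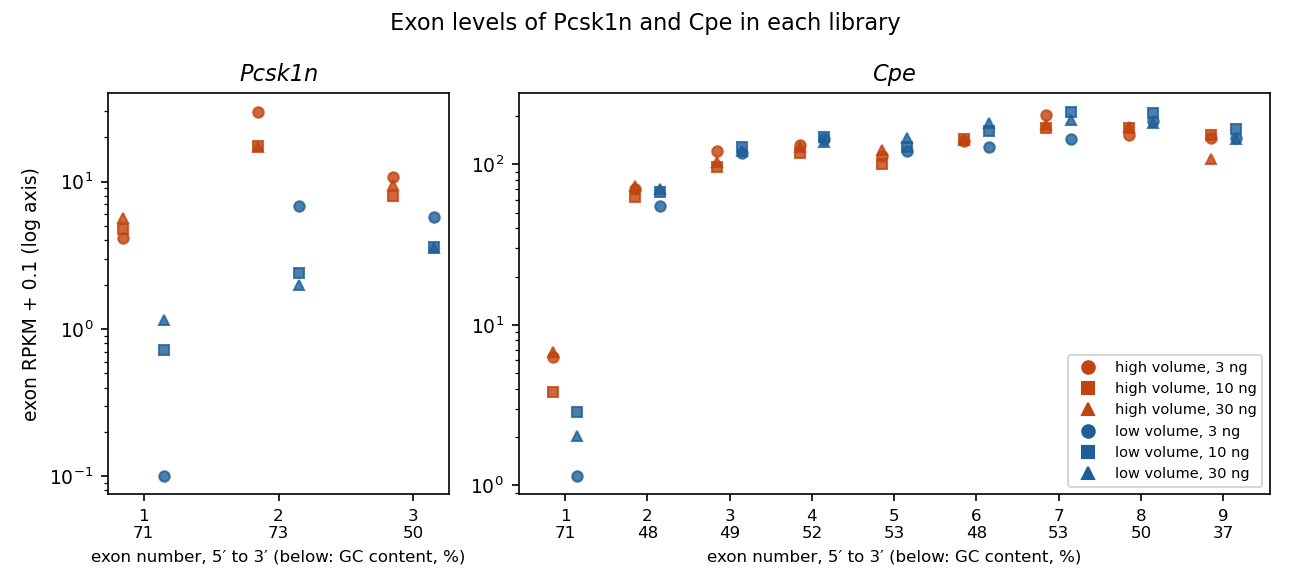
RPKM + 0.1 on a log axis of each exon of Pcsk1n (left) and Cpe (right) in each library, high volume left of low volume, with the GC content of the exon under its number. All high-volume points lie above all low-volume points in the 3 exons of Pcsk1n and in exon 1 of Cpe, which lies below 10 RPKM while exons 3 to 9 of Cpe lie near or above 100 RPKM.

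Cpe, carboxypeptidase E, lies on chromosome 8 (chr8:64592558-64693040, minus strand) and measured 109, 105 and 96.3 RPKM in high-volume libraries of 3, 10 and 30 ng, against 106, 122 and 115 RPKM in low-volume libraries. The groups overlapped, and the log2 difference in count was 0.00 ± 0.11 in 6 libraries and -0.11 ± 0.08 in the 10 and 30 ng libraries. Its first exon departed from the rest of the gene. That exon (398 bases, 70.6% GC) had 38, 38 and 75 tags in high-volume libraries of 3, 10 and 30 ng, against 7, 32 and 26 tags in low-volume libraries. In RPKM it had 5.51 ± 1.60 in high volume and 1.91 ± 0.86 in low volume (SD, n = 3 each), a ratio of 2.89, while exon 5 (53.0% GC) had 112 ± 10.7 RPKM in high volume and 131 ± 12.1 RPKM in low volume. Exon 1 held 0.632% of the tags of Cpe on 19.1% of its length.

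Pam, the amidating enzyme, lies on chromosome 1 (chr1:97821094-98095621, minus strand) and measured 3.82, 5.30 and 4.05 RPKM in high-volume libraries of 3, 10 and 30 ng, against 3.77, 6.89 and 4.56 RPKM in low-volume libraries. The 10 ng library was the highest of each group, and the groups overlapped. Cpe exceeded Pam by 4.28 ± 0.22 in log2(RPKM + 1) in 6 of 6 libraries (SD, n = 6, exact p = 0.0312, adjusted p = 0.0352). The Pam value is mostly that of its last exon, exon 26, which has 895 bases, 21.9% of the length, and held 76.7% of the tags. That share ran between 64.1 and 78.6% in high-volume libraries and between 75.4 and 91.2% in low-volume libraries. The first 268 bases of exon 26 include its 176 coding bases. At 3, 10 and 30 ng they had 0, 3 and 9 tags in high volume and 0, 10 and 5 tags in low volume. The whole exon had 183, 441 and 300 tags in high volume and 238, 651 and 478 tags in low volume. Nearly all of its tags thus lay in its noncoding 3′ part. Of the 26 exons, 17, 1 and 1 had 0 tags in high-volume libraries of 3, 10 and 30 ng, against 20, 0 and 1 in low-volume libraries. The Pam level, and with it the comparison with Cpe, thus rests largely on the last exon in all 6 libraries, and not at 3 ng alone. At 3 ng the share of that exon was 75.6% in high volume and 91.2% in low volume. Pam-201, Pam-202 and Pam-210 share nearly all of their tags, since transcripts were counted without dividing reads between them, so these isoforms cannot be told apart by level.

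**Figure D4:**
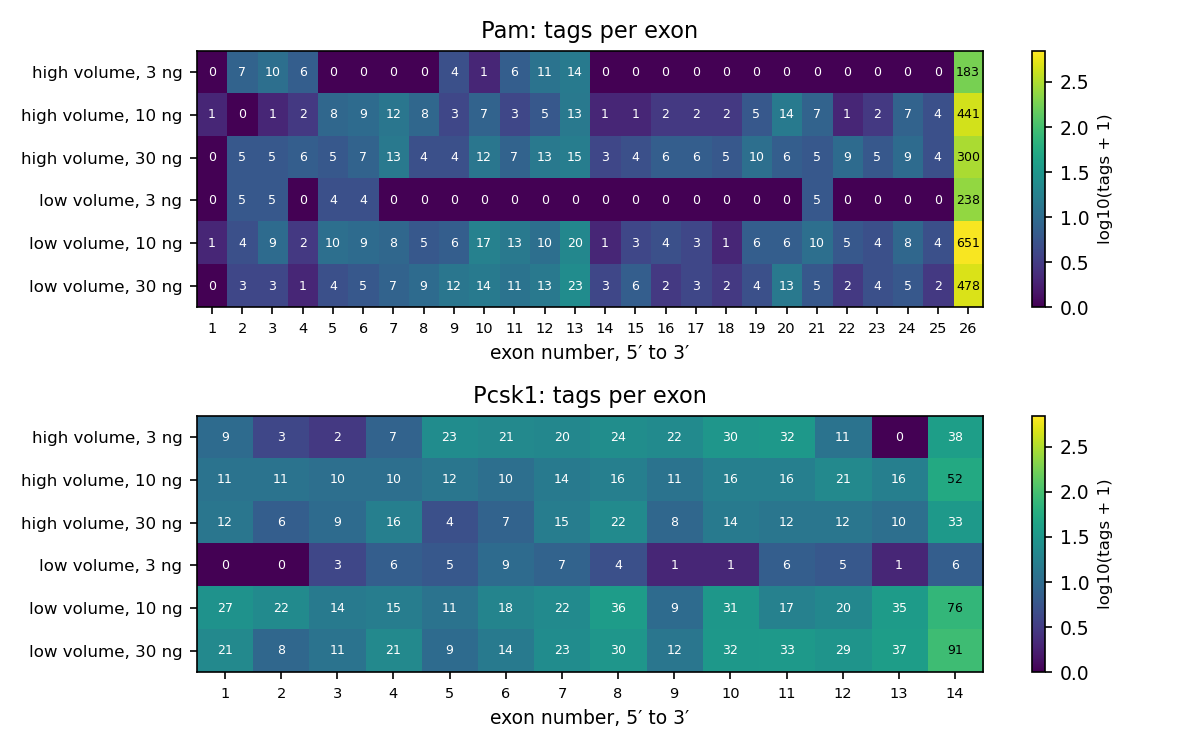
Tags in each exon of Pam (top) and Pcsk1 (bottom), from the 5′ end at the left to the 3′ end at the right, in the 6 libraries, with colour on a log10 scale of tags + 1. Exon 26 of Pam holds 183 to 651 tags while most other exons hold under 20, and in the 3 ng libraries 17 (high volume) and 20 (low volume) of the 26 exons are at 0.

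Some of the 10 genes had few tags in the first exon. The count that follows has no share over all genes beside it and is not read as particular to the 10 genes. Of their 10 first exons, 5 held less than 0.333 of the median tags per base of the exons of their transcript, against 3 of the 87 other exons. The 5 were those of Chgb, Cpe, Pam, Pcsk1 and Scg5, with GC contents between 53.4 and 77.4%. Those of Pcsk1 (0.322) and Scg5 (0.326) lay close to the limit. The 3 others were exons 2 and 15 of Pam and exon 12 of Pcsk2, its last and longest. The log2 ratio of tags per base in the 3′ as against the 5′ part of the transcript, divided at its middle, was above 0 in all 6 libraries for 5 of the 10 genes, Chga, Chgb, Scg2, Cpe and Pam, against 48.3% of 10032 genes, a share near the background. Tags of an exon that spans the middle were split by length. Exon 2 of Scg2 makes up 94.6% of its length. The Scg2 ratio, 0.0573 to 0.128, was therefore largely set by this split and says little of its 3′ coverage. Pam had the highest mean of the 10, 2.39, and Pcsk2 the lowest, -1.36, below 0 in all 6 libraries. The ratio of Pcsk1n was -0.53 ± 0.18 in high volume and 0.43 ± 0.22 in low volume (SD, n = 3 each, exact permutation p = 0.1), and it was the 1 gene of the 10 whose groups did not overlap, against 9.93% of 10032 genes.

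Across the 57 exons of the 10 genes with a mean of at least 20 tags, the log2 ratio of high to low volume had a Spearman correlation with GC content of 0.217, and of 0.180 without the exons of Pcsk1n, too weak to read. Exons of a gene share its libraries and level and are no replicates. Among the 7 exons of at least 60% GC, a limit set after the values were seen, 6 had a ratio above 0, with a median of 0.33 on the log2 scale. Among the 50 other exons 17 had a ratio above 0, with a median of -0.08. The ratios use deposited RPKM without TMM scaling. With total counts in place of TMM, the median log2 difference of all genes in 6 libraries was -0.10. A ratio of 0 is therefore not the level of no difference on the scale of the fits. Of the 7 exons 4 are first exons, against 1 of the 50 others, so GC content and exon position cannot be told apart here. Without first exons the correlation was 0.133.

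**Figure D5:**
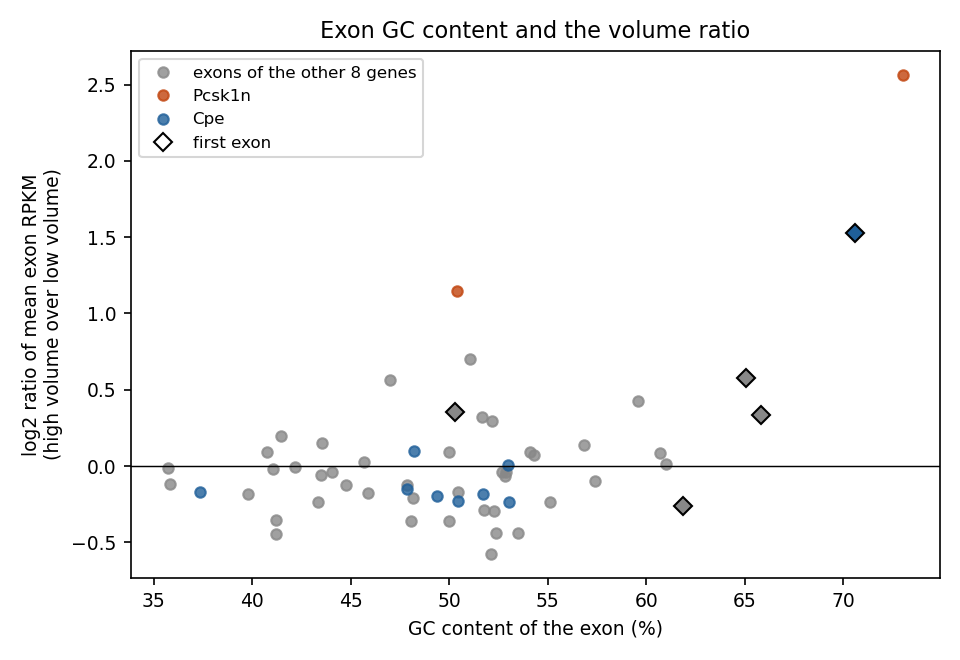
Log2 ratio of the mean exon RPKM, high volume over low volume, against the GC content of the exon in percent, for 57 exons with a mean of at least 20 tags, with first exons as diamonds. Pcsk1n exon 2 (2.56 at 73.0% GC) and Cpe exon 1 (1.53 at 70.6% GC) lie above the others, and the other exons spread between -0.58 and 1.15 with no clear slope.

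The second transcripts of Scg5 and Pcsk1 added few or no tags of their own, and that of Pcsk2 added some. Scg5-202 is listed at 53.0 RPKM, but its exon outside Scg5-201, with 361 bases, had 0, 7 and 7 tags in high-volume libraries of 3, 10 and 30 ng, against 9, 17 and 12 tags in low-volume libraries. Its level in the tables thus comes from exon 2 of Scg5-201, which it shares. Exon 6 of Pcsk1-202, with 653 bases, had the same tags in each library as the 89 bases it shares with Pcsk1-201. Pcsk2-202 is listed at 3.60 RPKM, and its first exon lies wholly within Pcsk2-201. Its second exon has 3292 bases, of which 105 are shared. At 3, 10 and 30 ng it had 32, 90 and 135 tags in high volume and 153, 120 and 178 in low volume. The shared bases had 23, 70 and 88 tags in high volume and 58, 91 and 113 in low volume.

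Besides the 10 genes, 4 other lists of the pathway were followed, and edgeR called none of their genes in the volume or input fits. Of 23 other convertases and trimming enzymes, 5 averaged 10 RPKM or more, led by the lysosomal protease Ctsl with 155 ± 12.6 RPKM, the peptidase Prep with 18.3 ± 2.31 RPKM and the site-1 protease Mbtps1 with 14.2 ± 2.02 RPKM (SD, n = 6). Of the 22 tested, edgeR called 0 for volume, with 2 at an unadjusted p under 0.05 in 6 libraries (all genes 6.67%) and 4 in the 10 and 30 ng libraries (all genes 15.9%), and DESeq2 called 0 in 6 libraries and 1 in the 10 and 30 ng libraries, Prep. Furin, the convertase of the constitutive pathway, had 1.65 ± 0.469 RPKM, below Pcsk2 in every library. Of 33 genes of dense-core granule formation and release, 12 reached 10 RPKM, led by Atp6ap1, an accessory subunit of the proton pump, with 195 ± 33.7 RPKM, the granule GTPase Rab3a with 179 ± 22.8 RPKM and Syt11 with 80.6 ± 7.90 RPKM. Vgf, another granin-like precursor, had 0.605 ± 0.274 RPKM. The summed TMM-scaled CPM of this list was 2078 to 2141 in high volume and 2292 to 2394 in low volume, without overlap. A sum weighs the most abundant genes most. Of 16000 single genes 15.5% separated the groups in this way, and there is no such share over lists of genes. The median log2 difference was -0.14 over 31 genes in 6 libraries, against 0.02 over all genes, and -0.06 over 33 genes in the 10 and 30 ng libraries, against 0.01. In 6 libraries edgeR called 0 of the 31, with 3 at an unadjusted p under 0.05, beside 6.67% of all genes. In the 10 and 30 ng libraries edgeR called 0 of 33, with 9 at an unadjusted p under 0.05, beside 15.9% of all genes, and DESeq2 called 0 in both.

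Of 30 peptide precursors, the cargo of these granules, 8 reached 10 RPKM and 5 lay under 0.1 RPKM. Galanin, Gal, stood far above the rest with 1558 ± 193 RPKM, followed by Npy with 81.6 ± 7.31 RPKM and Tac1, the precursor of substance P, with 43.5 ± 4.65 RPKM (SD, n = 6). The median of the 30 was 2.22 RPKM, against 12.8 RPKM for the 10 granin and processing genes. Of 12 transcription factors that regulate granin and endocrine genes, 1 reached 10 RPKM, Atf4 with 43.7 ± 4.83 RPKM, before Neurod1 with 4.27 ± 1.78 and Creb1 with 3.11 ± 0.809 RPKM. Rest, the repressor of neuronal genes that binds near several granins, had 1.12 ± 0.445 RPKM. In both volume fits edgeR called 0 of the 21 precursors and 0 of the 10 factors tested, with 0 precursors and 1 factor at an unadjusted p under 0.05. DESeq2 called 0 of them too, where a gene without an adjusted p was counted as not called.

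Markers of cell types were read beside the call of Pcsk1n in the 10 and 30 ng libraries. In that fit edgeR called Ngfr of 12 glial markers (1.40 ± 0.13, high minus low, adjusted p = 0.00169). Of 15 genes listed as spinal cord markers 9 were tested, and edgeR called Hes5 (1.87 ± 0.27, adjusted p = 0.00969). Whether the Hes5 tags came from spinal cord was not tested. Of 20 sensory neuron markers edgeR called Prph (0.33 ± 0.07) and Pou4f1 (-0.45 ± 0.09). It also called Hbb-y (0.30 ± 0.06), Hbb-bs (0.34 ± 0.07) and Hba-a1 (1.51 ± 0.22) of 12 markers of blood, vessels and mesenchyme, where near-identical globin copies can share reads. DESeq2 on the same 4 libraries called Ngfr, Prph, Pou4f1, Hbb-y and Hbb-bs but not Hba-a1, and 0 of the 9 spinal cord markers tested. The sums that follow are of TMM-scaled CPM over each list, with no share over other lists beside them. Of single genes, 15.5% separated the groups by TMM-scaled CPM. Spinal cord markers summed to 19.6 to 27.5 CPM in high volume and 11.1 to 15.9 CPM in low volume, and 7 of the 15 averaged under 0.1 RPKM, among them Olig2, Nkx2-2 and Mnx1. The spinal cord sums did not overlap between volumes. Hes5 alone held 10.4 to 17.2 CPM in high volume and 2.47 to 5.00 CPM in low volume, so a large part of the difference lies in that gene. The median log2 difference of the list was -0.10 over 7 genes tested in 6 libraries, against 0.02 over all genes. In the 10 and 30 ng libraries it was -0.08 over 9 genes, against 0.01. Blood, vessel and mesenchyme markers summed to 4882 to 5341 CPM in high volume and 3864 to 4414 CPM in low volume, also without overlap. The median log2 difference of this list was 0.19 over 12 genes in 6 libraries and 0.17 in the 10 and 30 ng libraries. Its genes differed among themselves. In the 10 and 30 ng libraries only Cdh5 (-0.15) and Dcn (-0.20) were below 0, and the vessel markers Kdr (0.03) and Pecam1 (0.05) were near 0. Glial markers summed to 1758 to 1847 CPM in high volume and 1698 to 1807 CPM in low volume, and sensory neuron markers to 18360 to 21117 CPM in high volume and 19268 to 22087 CPM in low volume. Markers of sympathetic and chromaffin cells summed to 327 to 372 CPM in high volume and 344 to 437 CPM in low volume. These last 3 lists overlapped between volumes. Hand2, of the last list, lay under 0.1 RPKM. All 6 libraries drew on one RNA pool, and the part of these markers in the difference of Pcsk1n was not tested.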

How the data were processed

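RNA sequencing of 1 pool of dorsal root ganglion RNA gave 6 libraries, 3 per reaction volume, grouped by the sample titles. The authors deposited whole-number read counts (tags) and RPKM per transcript, exon and intron, per the file headers. CASAVA 1.8, TopHat2 2.0.8, Bowtie2 2.1.0 and GRCm38.p1 are named in the submitters' processing notes; the program that counted reads, and whether it used strand, is not given in the sources used here. RNA was diluted from a 100 ng per µl stock, cDNA was sheared for 3 min, and libraries had 12 PCR cycles, per the labels' protocols.

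Of 93615 transcripts, 89664 matched GENCODE M21 and 3951 did not and stayed out; every transcript count equalled the sum of its exon counts. For each gene the transcript with the most tags over all libraries was used. Volume and centred log2 input were fitted with edgeR 4.0.16 in R 4.3.3 (quasi-likelihood, TMM, filterByExpr; SEs from the F statistic), with DESeq2 1.42.0 as an alternative, and scripts were tested on simulated data. Genes to which DESeq2 gave no adjusted p stayed in its counts of genes tested, as not called. Levels used the deposited RPKM, and pairs log2(RPKM + 1). Coverage used genes with at least 50 tags in each library. Tags carry no molecular identifiers, so counting errors, 1.33 to 6.49% at the mean tags of a gene, are lower bounds. Replicates 1, 2 and 3 of each group are the 10, 3 and 30 ng libraries. The members and lists were chosen with earlier results of these data known. Named besides the 10 members were the 3 highest genes of each list, called list genes, and the 5 genes most like Pcsk1n.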

Additional observations from a re-analysis of the deposited data

Results flagged for a closer look

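Intron tags, a measurement that the comparisons did not use, exceeded the limit of 3 tags that a count of 0 allows in every library for 5 of the 10 genes, and there were no control samples to set a background. Pam held 365 to 1254 intron tags, Scg5 370 to 882, Pcsk2 338 to 584, Cpe 116 to 294 and Scg3 77 to 191. Per base this was 1.76 to 3.00% of the exon density for Pam over the 6 libraries.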

How the results depend on the processing

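Of the differences and pairs of single genes under alternatives that leave no library out, 212 kept their direction and side of the threshold, 3 passed the threshold newly, and 11 turned a direction, each of a difference that was not called. With single libraries left out 127 kept both, 1 passed newly, 38 turned and 48 no longer passed, all of them pairs, where 5 libraries are too few for the sign-flip test. In 6 libraries, scaling by total counts turned the volume differences of Scg3 (-0.0181), Scg5 (-0.0463), Pcsk2 (-0.0836) and Cpe (-0.117), and Cpe was negative with DESeq2 (-0.00621), RLE factors (-0.00583), no low-count filter (-0.00825) and the block with GC correction (-0.0103). In the 10 and 30 ng libraries Scg3 became 0.0369 with the block and GC correction and Pcsk2 -0.0764 with total counts, and the input slope of Chga became 0.00390 without a filter. Genes called for volume in 6 libraries numbered 174 with DESeq2 and 11 without a filter, where 1 of the 10 genes, Pcsk1n, was called. For input the counts were 36 and 2, and for the interaction 17 and 254. In the 10 and 30 ng libraries they numbered 445 with RLE factors (267 higher and 178 lower), 418 with the longest transcripts and 926 (504 higher and 422 lower) without a filter, the last 2 with 2 of the 10 genes called, Pcsk1n and Chga, and 83 (82 higher and 1 lower) without the input term, chosen after the data were seen. Calls there split into 201 higher and 74 lower with TMM, 183 and 149 with DESeq2, 109 and 231 with total counts, and 150 and 151 with GC correction; the causes were not tested. Coverage separated the groups for 2 genes when the last 1000 and first 1000 bases were compared. The input amounts share replicate numbers, but same-input libraries deviated together with correlations of 0.0278, 0.130 and 0.00753 at 3, 10 and 30 ng, and 3 of 6 libraries correlated best with their own input, so the numbers were not taken as pairs. For volume in 6 libraries the block on input gave 0 calls, and 0 with GC correction. In the 10 and 30 ng libraries the block with GC correction gave 301 calls. Leaving out single libraries gave 0 to 2 calls for volume in 6 libraries, 95 to 539 in the 10 and 30 ng libraries (143 without the low-volume 30 ng library; the input term was dropped as well) with 1 to 2 of the 10 genes, 1 to 2 genes with separate coverage, and 4 to 5 overlapping neighbours. The 8 pairs on one side in all libraries stayed so. The volume differences that turned, none of them called, ran in 6 libraries from -0.0370 to 0.295 for Chgb, -0.549 to 0.287 for Scg2, -0.0593 to 0.200 for Scg3, -0.101 to 0.172 for Scg5, -0.449 to 1.03 for Pcsk1, -0.0250 to 0.0904 for Pcsk2, -0.127 to 0.0818 for Cpe and -0.298 to 0.223 for Pam; in the 10 and 30 ng libraries from -0.144 to 0.0766 for Scg3 (0.0661 without the high-volume 30 ng library), -0.00139 to 0.0587 for Pcsk2 and -0.437 to 0.133 for Pam (0.0158 without the high-volume 30 ng library). Input slopes ran from -0.0983 to 0.0900 for Chga, -0.310 to 0.0542 for Scg2, -0.0929 to 0.0203 for Scg3, -0.0549 to 0.0879 for Scg5, -0.346 to 0.356 for Pcsk1, -0.0646 to 0.0273 for Cpe and -0.0637 to 0.140 for Pam. Pcsk1n kept its direction in both volume fits under every alternative run, from 1.63 to 2.00.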
